A study of Mus musculus with 18 samples.

Results

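Cholesterol and fatty acid synthesis was followed through 30 genes in 4T1 cells, a mouse mammary carcinoma line, and in 4T1R1 and 4T1R2, populations of 4T1 cells that were selected separately for survival of 17-DMAG. The genes were chosen by name as lipid synthesis genes driven by the SREBP transcription factors. They comprised 19 genes of the sterol branch and 11 of the fatty acid branch, out of 24421 genes listed, and all 30 were among the 13507 genes with enough counts to be tested. 17-DMAG is an inhibitor of the chaperone HSP90, and each population was sequenced untreated and after 1.5 µM 17-DMAG, which gives 6 groups of 3 libraries. All cells carry the wild-type genotype of strain BALB/cfC3H according to the labels, and 4T1R1 and 4T1R2 are described as populations grown from cells that survived repeated exposure, not as clones. The exposure before RNA isolation is given as 48 h in the sample records and as 2 h in the series description, so the time behind the 17-DMAG responses is uncertain.

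The sequenced material was total RNA depleted of ribosomal RNA, and totals ran from 23354461 to 55094630 counts per library, of which the ribosomal RNA precursor Rn45s took 9.54% to 15.6%. In the 17-DMAG-treated 4T1 group, replicates 1 and 2 were far more alike at low counts than any other pair within a group (chi-square per gene of 1.0994, against 2.0416 to 2.2191 in the 17 other pairs). They were counted as 1 sample, which left n = 2 in that group and n = 3 in the others. Names of the 4T1R1 libraries form a block of their own, while 4T1 and 4T1R2 share one, so a difference in level between 4T1R1 and either other population cannot be told apart from one between the blocks. The 17-DMAG response of each population lies within 1 block. Among the 8 epithelial markers only Krt5 was at or near 0, and the summed level of the list was 76639 to 77720 normalized counts in untreated 4T1, 51598 to 54125 in 4T1R1 and 59766 to 60970 in 4T1R2. Not all markers followed the sum. Of 7 tested, 5 were lower and 1 higher in 4T1R1 (27.5% and 25.2% of all genes). In 4T1R2, 4 were lower and 2 higher (26.9% and 25.6%). Krt14 had means of 143, 214 and 365 in untreated 4T1, 4T1R1 and 4T1R2, and Cdh1 of 11139, 11245 and 13477. Summed markers of leukocytes, endothelial cells and adipocytes did not exceed 66.5, 17.6 and 22.2 normalized counts in any library. The 8 fibroblast markers summed to 690 to 771 in untreated 4T1, 842 to 895 in 4T1R1 and 920 to 1043 in 4T1R2, nearly all of it Pdgfra. The part of these marker differences in the lipid gene results was not tested.

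Cells make cholesterol from acetyl-CoA through mevalonate, squalene and lanosterol, and make fatty acids by carboxylating acetyl-CoA and extending the chain, after which elongases and desaturases modify it. SREBP-2, encoded by Srebf2, mainly drives genes of the first route and SREBP-1, encoded by Srebf1, mainly those of the second. When sterols are plentiful, INSIG proteins hold the SREBP precursors in the endoplasmic reticulum, and Insig1 is itself a target of this system. Tests were made with edgeR's quasi-likelihood method over all 13507 genes, a change was called at an adjusted P-value under 0.05, and levels are given as normalized counts, that is counts after dividing by library size with TMM scaling.

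The upstream sequences of 5 sterol genes are shown because Insig1 and Msmo1 were among the genes with the largest differences between populations, Hmgcs1 held the only match to the classical sterol regulatory element, and Cyp51 and Sc5d departed from the other sterol genes. Each is the 250 bases before the RefSeq start on GRCm38.p6, written 5′ to 3′ on the strand of the gene, with matches to the searched motifs on either strand in capitals: TCACCCCAC (sterol regulatory element, SREBP), CACGTG (E-box) and CCAAT, which reads ATTGG on the other strand. The windows are chr5:28071162-28071411 on the plus strand (Insig1), chr8:64733579-64733828 on the minus strand (Msmo1), chr13:119690101-119690350 on the plus strand (Hmgcs1), chr5:4104698-4104947 on the minus strand (Cyp51) and chr9:42264301-42264550 on the minus strand (Sc5d).
Insig1: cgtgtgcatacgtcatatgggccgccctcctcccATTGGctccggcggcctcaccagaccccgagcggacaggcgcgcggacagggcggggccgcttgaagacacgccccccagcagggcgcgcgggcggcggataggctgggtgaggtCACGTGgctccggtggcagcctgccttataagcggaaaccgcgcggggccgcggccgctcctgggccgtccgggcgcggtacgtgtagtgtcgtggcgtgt
Msmo1: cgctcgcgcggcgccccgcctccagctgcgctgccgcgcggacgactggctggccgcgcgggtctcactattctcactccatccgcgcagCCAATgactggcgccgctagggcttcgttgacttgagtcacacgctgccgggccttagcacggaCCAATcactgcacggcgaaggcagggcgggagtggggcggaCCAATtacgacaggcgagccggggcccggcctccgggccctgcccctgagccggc
Hmgcs1: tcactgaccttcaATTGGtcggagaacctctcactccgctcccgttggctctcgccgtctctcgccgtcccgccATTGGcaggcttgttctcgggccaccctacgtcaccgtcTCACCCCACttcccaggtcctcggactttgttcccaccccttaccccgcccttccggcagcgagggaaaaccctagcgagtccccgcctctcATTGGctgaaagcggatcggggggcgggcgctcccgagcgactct
Cyp51: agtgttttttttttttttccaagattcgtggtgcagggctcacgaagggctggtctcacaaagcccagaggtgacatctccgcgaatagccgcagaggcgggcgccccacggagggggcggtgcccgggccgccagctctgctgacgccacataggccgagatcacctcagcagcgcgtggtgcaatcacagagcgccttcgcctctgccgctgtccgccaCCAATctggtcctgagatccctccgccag
Sc5d: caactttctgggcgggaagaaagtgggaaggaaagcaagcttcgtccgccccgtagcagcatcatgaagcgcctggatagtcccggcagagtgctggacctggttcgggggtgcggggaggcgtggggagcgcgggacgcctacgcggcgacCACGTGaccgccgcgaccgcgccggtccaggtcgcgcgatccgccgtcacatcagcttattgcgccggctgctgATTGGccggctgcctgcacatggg
RefSeq start windows, here 250 bases before to 50 after the start, were found for 23 of the 30 genes and not for Sqle, Fdps, Fdft1, Stard4, Scd1, Scd2 and Fads1. CCAAT was present in 14 of 15 sterol genes, all but Acat2, and in 5 of 8 fatty acid genes, while 42.8% of the 10095 tested genes with a window and 37.4% of all 32851 windows held it. TCACCCCAC was found in Hmgcs1 and in no other of the 15 sterol genes, and in none of the 8 fatty acid genes, against 0.723% of tested genes and 0.551% of windows. Its relaxed form TCACNCCAC, which includes it, added no member (1.41% and 1.24%). CACGTG occurred in 4 sterol genes, Insig1, Sc5d, Dhcr7 and Hsd17b7, and in no fatty acid gene (11.5% and 7.15%). The heat shock letters GAANNTTC occurred in 1 sterol gene, Idi1, and in no fatty acid gene (6.89% and 7.86%). These are matches of letters, and a missing match says only that the letters are not in this window.

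**Figure D1:**
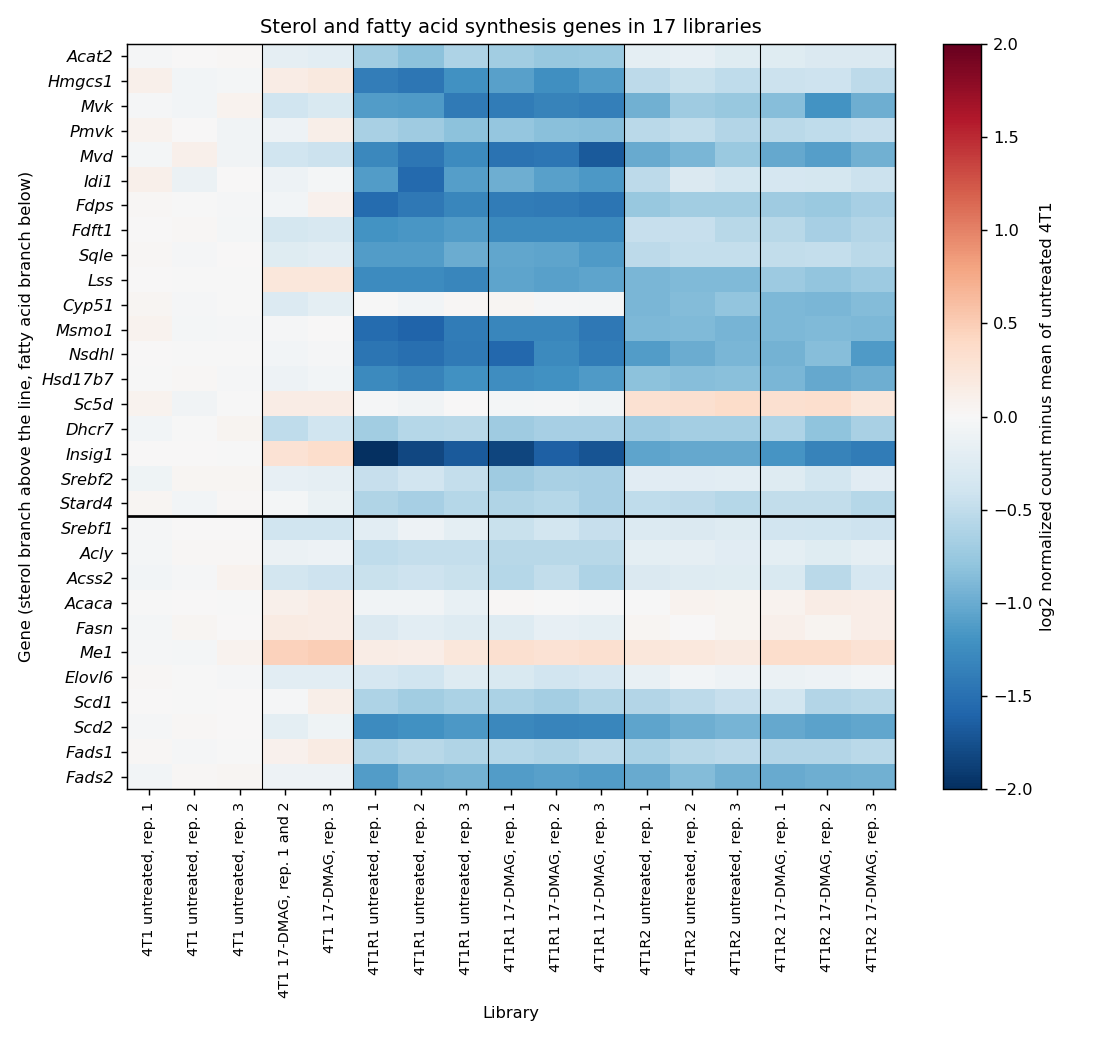
Heat map of the 30 genes (rows, sterol branch above fatty acid branch) in the 17 libraries (columns, by group), coloured by the log2 of the normalized count relative to the mean of untreated 4T1. Nearly all sterol rows are lower in 4T1R1 and 4T1R2 than in 4T1, with Cyp51 near the 4T1 level in 4T1R1 and Sc5d above it in 4T1R2. After 17-DMAG in 4T1, Me1 (log2FC 0.47) and Srebf1 (-0.40) move most in the fatty acid rows.

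Untreated 4T1R1 was compared with untreated 4T1 to describe how the selected population differed at rest. Transcripts of 17 of the 19 sterol genes were lower in 4T1R1, none was higher (0 by edgeR, at an unadjusted p as well, and 0 by DESeq2), and Cyp51 and Sc5d did not pass the test. Of the 11 fatty acid genes, 10 were lower and Me1 was higher. Of all genes tested, 27.5% were lower and 25.2% higher. The median log2FC was -1.22 for the sterol branch (range -1.84 to -0.01) and -0.43 for the fatty acid branch, against 0.01 over all genes. In RNA from a whole culture, a lower level in each cell and fewer cells with a high level cannot be told apart. Library values of 4T1R1 and 4T1 did not overlap for 17 sterol genes and 10 fatty acid genes in the lower direction, where the share over all genes was 28.8%, and for Me1 in the higher direction (27.7%).

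Untreated 4T1R2 was compared with untreated 4T1 in the same fit, and both comparisons use the same 3 untreated 4T1 libraries. In 4T1R2, 18 sterol genes were lower and Sc5d was higher. In the fatty acid branch 8 genes were lower, Me1 was higher, and Fasn and Acaca did not pass the test. Over all genes 26.9% were lower and 25.6% higher. The median log2FC was -0.70 for the sterol branch (range -1.03 to 0.33) and -0.26 for the fatty acid branch, against 0.01 over all genes. Libraries did not overlap for 18 sterol and 8 fatty acid genes in the lower direction (29.2% of all genes) and for Sc5d and Me1 in the higher direction (28.0%).

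**Figure D2:**
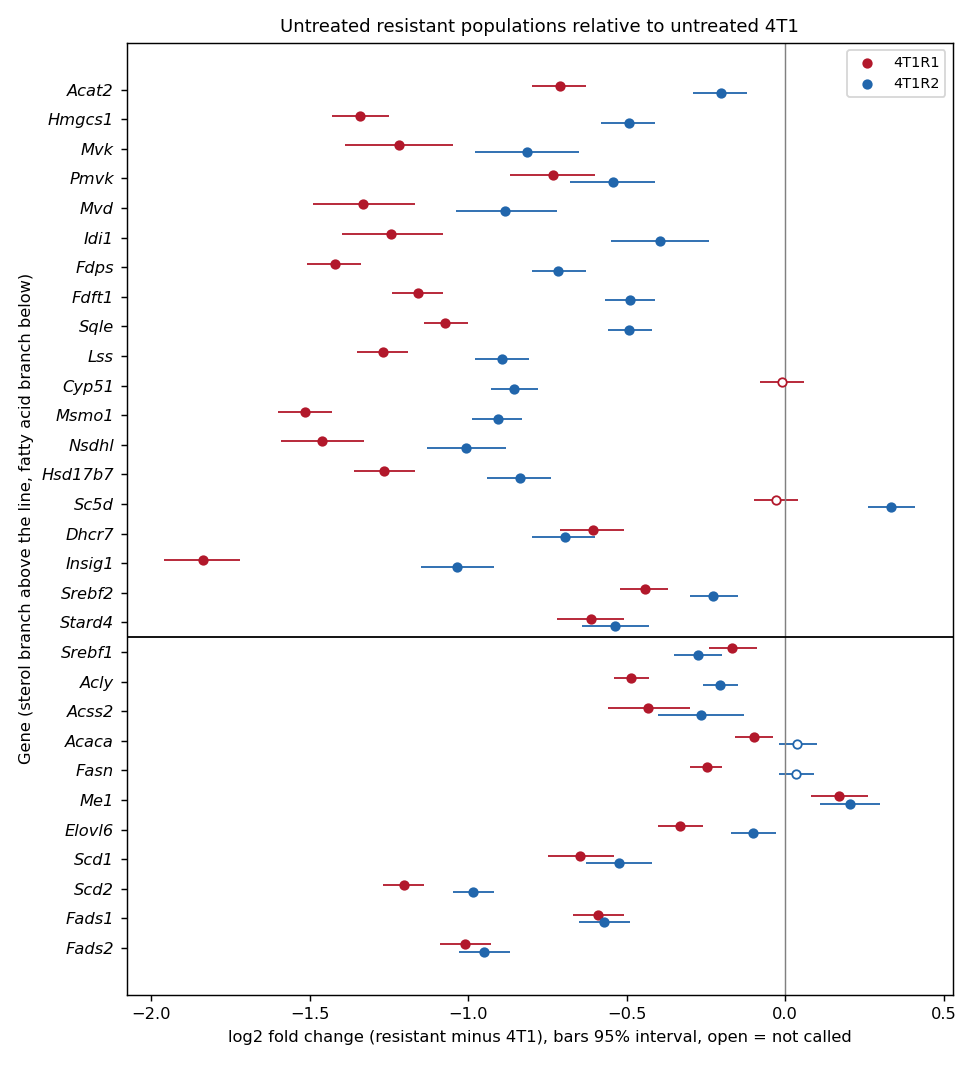
Log2FC of each gene in untreated 4T1R1 and 4T1R2 relative to untreated 4T1, with 95% intervals from the edgeR fit as bars, filled symbols for called changes and open symbols for the rest. Sterol genes lie mostly between -1.84 and -0.20, the open symbols are Cyp51 and Sc5d in 4T1R1 and Fasn and Acaca in 4T1R2, and Sc5d in 4T1R2 and Me1 in both populations lie above 0.

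Set directly against each other, untreated 4T1R2 had more transcript than untreated 4T1R1 for 16 sterol genes and less for Cyp51, with Stard4 (log2FC 0.07) and Dhcr7 (-0.09) not called. In the fatty acid branch 6 genes were higher in 4T1R2 and Srebf1 was lower. Over all genes 19.7% were higher and 19.0% lower. The median log2FC of 4T1R2 over 4T1R1 was 0.45 for the sterol branch and 0.13 for the fatty acid branch. Hmgcs1 and Idi1, with log2FC 0.85 each (SE 0.0452 and 0.0813, adjusted P-value 8.59e-19 and 2.99e-11), differed most in the higher direction, and Acly and Fasn led the fatty acid branch with 0.28 each (SE 0.0268 and 0.0256, adjusted P-value 2.52e-11 and 6.45e-12). Elovl6 (0.23) and Scd2 (0.22) followed. Calls for Pmvk (0.19) and Srebf1 (-0.11) were each lost when any of 3 untreated libraries was left out (for Pmvk, 4T1R1 replicate 3 and 4T1R2 replicates 1 and 2; for Srebf1, 4T1R1 replicate 2 and 4T1R2 replicates 1 and 2), with adjusted P-values of up to 0.163 and 0.154, and the call for Acss2 (0.17, adjusted P-value 0.045) was lost whichever library was left out.

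All 7 genes from acetyl-CoA to farnesyl diphosphate were lower in each selected population. Hmgcs1, which encodes HMG-CoA synthase, had 8116, 7260 and 7378 normalized counts in the untreated 4T1 libraries, 2916, 2778 and 3266 in 4T1R1, and 5295, 5545 and 5320 in 4T1R2. The populations were fully separated, with 4T1 highest and 4T1R1 lowest. The log2FC against 4T1 was -1.34 in 4T1R1 (SE 0.0446, adjusted P-value 1.89e-26) and -0.49 in 4T1R2 (SE 0.0432, adjusted P-value 6.9e-13). Fdps, farnesyl diphosphate synthase (chr3:89093588-89101959, minus strand, GRCm38), had 5881, 5738 and 5705 normalized counts in 4T1, 1977, 2133 and 2350 in 4T1R1, and 3412, 3579 and 3560 in 4T1R2. Its order was the same, with 37.3% of the 4T1 level in 4T1R1 (log2FC -1.42, SE 0.0431, adjusted P-value 7.85e-28) and 60.9% in 4T1R2 (-0.72, SE 0.0418, 3.27e-18). The kinases Mvk and Pmvk, the decarboxylase Mvd, the isomerase Idi1 and the thiolase Acat2 had log2FC between -1.33 (Mvd) and -0.71 (Acat2) in 4T1R1 and between -0.88 (Mvd) and -0.20 (Acat2) in 4T1R2. Mvd held the lowest raw count of any member, 252 in a library.

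The 3 genes that build and close the sterol skeleton were also lower. Sqle encodes squalene epoxidase, a rate-controlling enzyme of the pathway, and had 7303, 7078 and 7256 normalized counts in 4T1, 3319, 3324 and 3635 in 4T1R1, and 5026, 5186 and 5180 in 4T1R2. No library of one population reached into another. Sqle log2FC was -1.07 in 4T1R1 (SE 0.035, adjusted P-value 1e-26) and -0.49 in 4T1R2 (SE 0.0344, adjusted P-value 9.69e-16). Lss, lanosterol synthase, had 3060, 3050 and 3048 normalized counts in 4T1, 1279, 1281 and 1239 in 4T1R1, and 1616, 1656 and 1655 in 4T1R2. Levels were 41.5% of 4T1 in 4T1R1 (log2FC -1.27, SE 0.0406) and 53.8% in 4T1R2 (-0.89, SE 0.0402), and 4T1R2 was higher than 4T1R1 by log2FC 0.37 (SE 0.0427, adjusted P-value 2.13e-09). Fdft1, squalene synthase, had log2FC -1.16 and -0.49, but 18.3% of its exon bases lie opposite exons of Ctsb, and whether counting used strand is not given in the sources used here.

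Among the 6 genes after lanosterol the pattern split. Msmo1, the sterol methyl oxidase (chr8:64718139-64733792, minus strand), had 8071, 7476 and 7549 normalized counts in 4T1, 2634, 2529 and 2906 in 4T1R1, and 4117, 4173 and 4028 in 4T1R2. Its level was 35.0% of 4T1 in 4T1R1 (log2FC -1.52, SE 0.0401, adjusted P-value 6.9e-30) and 53.3% in 4T1R2 (-0.91, SE 0.0392, 1.57e-22). Nsdhl, the dehydrogenase that acts next (chrX:72918557-72958514, plus strand), had 2170, 2127 and 2148 normalized counts in 4T1, 782, 755 and 802 in 4T1R1, and 987, 1084 and 1141 in 4T1R2. Here too no libraries overlapped, with log2FC -1.46 (SE 0.0636, adjusted P-value 2.08e-22) and -1.01 (SE 0.0624, 2.23e-17). Hsd17b7, a sterol ketone reductase, followed with -1.27 and -0.84, and Dhcr7, which catalyses the final reduction to cholesterol, with -0.61 and -0.70.

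Cyp51, which encodes lanosterol demethylase (chr5:4081145-4104746, minus strand), had 6156, 5873 and 5927 normalized counts in untreated 4T1, 5958, 5781 and 6081 in 4T1R1, and 3192, 3275 and 3460 in 4T1R2. The 4T1R1 libraries thus sat among those of 4T1, and the 4T1R2 libraries lay far below. The log2FC was -0.01 in 4T1R1 (95% interval -0.08 to 0.06, adjusted P-value 0.816), -0.86 in 4T1R2 (SE 0.0355, adjusted P-value 4.16e-23) and -0.85 for 4T1R2 against 4T1R1 (SE 0.0354, adjusted P-value 2.68e-22). Sc5d, sterol desaturase (chr9:42251595-42264256, minus strand), had 4076, 3718 and 3883 normalized counts in 4T1, 3818, 3716 and 3907 in 4T1R1, and 4827, 4871 and 5015 in 4T1R2. It was the only sterol gene above 4T1 in 4T1R2, by log2FC 0.33 (SE 0.0362, adjusted P-value 2.43e-10), while in 4T1R1 it did not differ detectably (-0.03, 95% interval -0.10 to 0.04, adjusted P-value 0.523).

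Genes on the chromosome around the 30 members were then examined, a step chosen after the Cyp51 values were seen. Of the protein-coding genes tested, 15 others lay at least partly within 1 Mb of Cyp51, and in 4T1R1 14 of them were higher and none lower, with log2FC from 0.81 to 2.80 and a median of 1.42. Akap9, which abuts Cyp51 and shares 3.76% of its exon bases on the opposite strand, was higher by 1.42 in 4T1R1. In 4T1R2 the same 15 genes had a median of -0.22, with 1 higher and 6 lower. The median of the neighbours of the other 29 members lay between -0.30 and 0.59 in 4T1R1 and between -0.47 and 0.53 in 4T1R2. Sc5d had the highest of these, 0.59 in 4T1R1 and 0.53 in 4T1R2, over only 4 neighbours. Sqle had the lowest in 4T1R2, -0.47 over 8 neighbours, of which 6 were lower and 1 higher. Relative to the median of its neighbours, Cyp51 was at -1.43 in 4T1R1 and -0.64 in 4T1R2, and Sc5d at -0.62 and -0.20, on the log2 scale. On the same measure Sqle was at -0.83 in 4T1R1 but only -0.02 in 4T1R2, and Acat2 at -0.66 and -0.14. In 4T1R2, Sqle was thus lower by about as much as the median of the genes around it, and the reason was not tested. Farther along, 4.69 Mb from Cyp51, the drug efflux gene Abcb1b was higher by 2.78 in 4T1R1 and 4.26 in 4T1R2. It was not alone, as all tested protein-coding genes from 3.86 Mb (Steap4) to 5.62 Mb (Grm3) were higher in both populations. Their log2FC ran from 1.31 (Dmtf1) to 7.97 (Steap4) in 4T1R1 and from 1.96 (Dmtf1) to 8.39 (Steap4) in 4T1R2.

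**Figure D3:**
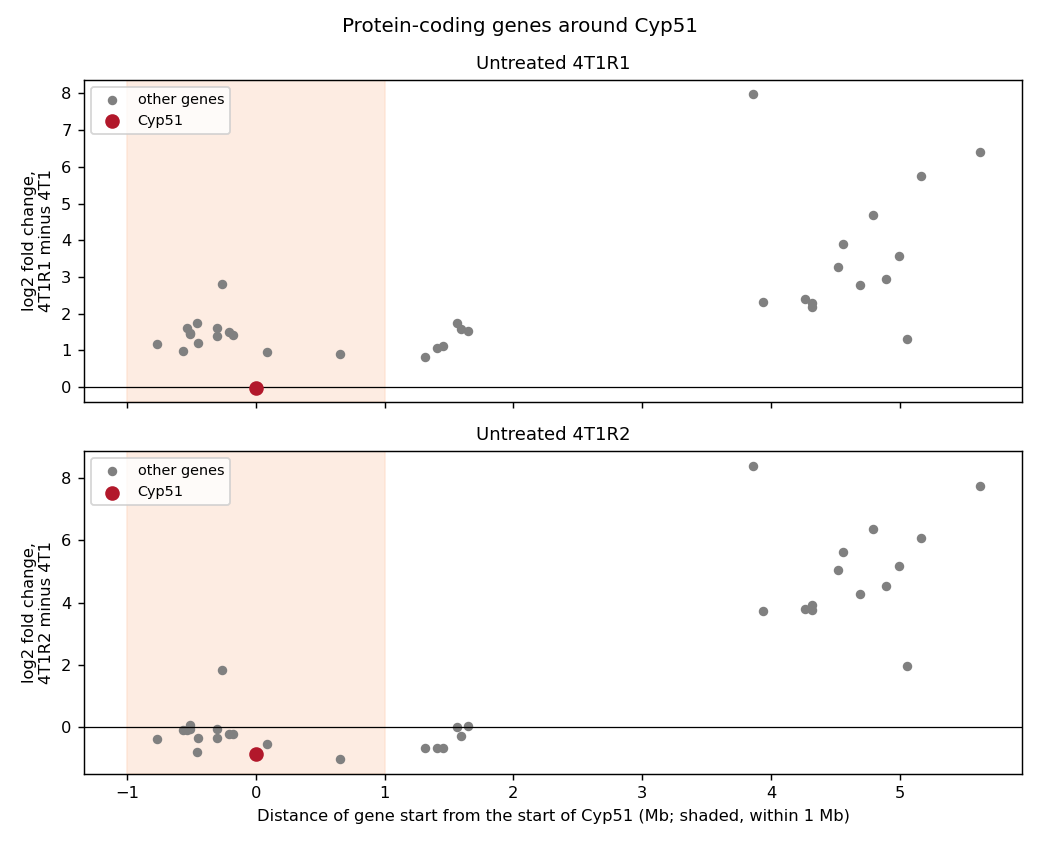
Log2FC in untreated 4T1R1 and 4T1R2 relative to untreated 4T1 for protein-coding genes within 6 Mb of the Cyp51 start, against distance in Mb. Within the shaded 1 Mb the 4T1R1 points lie between 0.90 and 2.80 with Cyp51 alone near 0, and the 4T1R2 points between -1.03 and 1.84 with Cyp51 at -0.86. From 3.86 to 5.62 Mb all points lie above 0, between 1.31 and 7.97 in 4T1R1 and between 1.96 and 8.39 in 4T1R2.

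Of the 3 genes of regulation and sterol transport, Insig1 differed most among all 30 members. Insig1, the SREBP retention protein (chr5:28071363-28078662, plus strand), had 3813, 3808 and 3770 normalized counts in untreated 4T1, 919, 1079 and 1183 in 4T1R1, and 1826, 1860 and 1877 in 4T1R2. The populations did not overlap, and the level was 28.0% of 4T1 in 4T1R1 (log2FC -1.84, SE 0.0577, adjusted P-value 2.57e-27) and 48.8% in 4T1R2 (-1.03, SE 0.0552, adjusted P-value 1.86e-19). Srebf2 itself had 5727, 6239 and 6216 normalized counts in 4T1, 4393, 4660 and 4337 in 4T1R1, and 5150, 5171 and 5208 in 4T1R2. Its log2FC of -0.44 (SE 0.037, adjusted P-value 2.31e-13) and -0.23 (SE 0.037, adjusted P-value 1.64e-06) were the smallest called decreases of the sterol branch in 4T1R1 and among the smallest in 4T1R2. Stard4, a cytosolic sterol carrier, had log2FC -0.61 and -0.54.

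Genes of fatty acid chain synthesis and its precursors were mostly lower in 4T1R1, by less than most sterol genes. Fasn, fatty acid synthase, had 44035, 46157 and 45300 normalized counts in untreated 4T1, 37101, 39142 and 37922 in 4T1R1, and 46457, 45466 and 46942 in 4T1R2. It was lower in 4T1R1 by 0.25 on the log2 scale (log2FC -0.25, SE 0.0256, adjusted P-value 7.7e-11) and overlapped 4T1 in 4T1R2 (0.04, 95% interval -0.02 to 0.09). Acaca, the carboxylase that makes malonyl-CoA, had log2FC -0.10 in 4T1R1 (SE 0.0298, adjusted P-value 0.0055) and 0.04 in 4T1R2 (95% interval -0.02 to 0.10). The Acaca call was lost when 4T1R1 replicate 3 was left out (adjusted P-value 0.0507). Acly, which makes cytosolic acetyl-CoA from citrate, had log2FC -0.49 and -0.20, and Acss2, which makes it from acetate, had -0.43 and -0.26. Me1, the malic enzyme that supplies NADPH, went the other way, with 1530, 1521 and 1632 normalized counts in 4T1, 1720, 1717 and 1829 in 4T1R1 and 1826, 1812 and 1758 in 4T1R2 (log2FC 0.17 and 0.20, adjusted P-value 0.00142 and 0.000185). Srebf1 was lower by log2FC -0.17 (SE 0.0382, adjusted P-value 0.00027) and -0.28 (SE 0.0388, adjusted P-value 9.67e-08).

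Scd2, a stearoyl-CoA desaturase that introduces the first double bond, showed the largest decrease of the fatty acid branch. Its normalized counts were 58515, 60184 and 59734 in untreated 4T1, 24767, 25676 and 26967 in 4T1R1, and 28599, 30194 and 31348 in 4T1R2. These levels were 43.4% of 4T1 in 4T1R1 (log2FC -1.20, SE 0.0299, adjusted P-value 6.45e-31) and 50.5% in 4T1R2 (-0.99, SE 0.0297, 6.58e-28). Scd2 was also the most abundant member per length, at 352 RPKM in untreated 4T1 (computed here from TMM-scaled totals and the bases of all annotated exons) against 133 for Fasn and 92.1 for Acly, and 153 and 178 in 4T1R1 and 4T1R2. Scd1, its close paralog on chr19, was at 14.0 on that scale in 4T1 and fell by log2FC -0.65 and -0.52 (SE 0.0523 and 0.0526, adjusted P-value 8.27e-14 and 3.22e-11), although reads shared between Scd genes could be split between them. Fads2 (chr19:10062765-10101746, minus strand), a desaturase of polyunsaturated fatty acids, had 4415, 4639 and 4682 normalized counts in 4T1, 2115, 2321 and 2376 in 4T1R1, and 2264, 2508 and 2352 in 4T1R2. Both selected populations were thus at about the same level, 49.6% of 4T1 in 4T1R1 (log2FC -1.01, SE 0.041, adjusted P-value 1.76e-23) and 51.8% in 4T1R2 (-0.95, SE 0.0414, 2.13e-22). Fads1, its neighbour and partner desaturase, had log2FC -0.59 and -0.57 (SE 0.0405 and 0.041, adjusted P-value 5.91e-16 and 2.18e-15). Between the selected populations Fads1 and Fads2 did not differ detectably, with 95% intervals of -0.07 to 0.10 and -0.02 to 0.15. Elovl6, which extends palmitate, had log2FC -0.33 and -0.10, the latter lost without 4T1R2 replicate 1 (adjusted P-value 0.097).

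The response to 17-DMAG was compared in each population with its own untreated libraries. In 4T1 the sterol branch moved both ways, with 4 genes higher and 8 lower of 19 and a median log2FC of -0.08, and the fatty acid branch likewise, with 4 higher and 5 lower of 11 and a median of -0.10. Over all genes 18.4% were higher and 18.0% lower, and the median was 0.00. Scaling by total counts alone, which shifts the median of all genes by -0.11, gave 2 higher and 11 lower sterol genes and 1 higher and 6 lower fatty acid genes, so the balance of directions in 4T1 depends on the scaling. Over all 13507 genes that scaling gave 1194 higher and 4323 lower. Single genes ranged from -0.45 (Dhcr7) to 0.47 (Me1).

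The largest decreases of the sterol branch in 17-DMAG-treated 4T1 were in Dhcr7, Mvd, Mvk and Fdft1. Dhcr7 went from 2393, 2453 and 2585 normalized counts in the untreated libraries to 1746 and 1886 in the treated ones, without overlap (log2FC -0.45, SE 0.0547, adjusted P-value 7.92e-09). Mvd (-0.42, SE 0.084, 9.33e-05), Mvk (-0.35, SE 0.0879, 0.00131) and Fdft1 (-0.34, SE 0.043, 2.27e-08) were likewise lower, as were Cyp51 (-0.24), Sqle (-0.22, adjusted P-value 6.69e-06), Acat2 (-0.20) and Srebf2 (-0.17, adjusted P-value 0.000954). Insig1 rose from 3813, 3808 and 3770 to 4649 and 4842 normalized counts (log2FC 0.32, SE 0.0569, adjusted P-value 1.37e-05). Lss (0.23), Hmgcs1 (0.17) and Sc5d (0.15) were the other called increases, of which that of Hmgcs1 was lost without the treated replicate 3 (adjusted P-value 0.0718). The calls for Hmgcs1 and Sc5d were also lost with scaling by total counts alone.

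In the fatty acid branch of 4T1, Me1 rose and Srebf1 fell most. Me1 went from 1530, 1521 and 1632 normalized counts to 2142 and 2193 (log2FC 0.47, SE 0.0485, adjusted P-value 1.24e-10). Srebf1 went from 2972, 3034 and 3013 to 2277 and 2285 (log2FC -0.40, SE 0.0433, adjusted P-value 5.39e-10). Both genes were fully separated between treated and untreated libraries. Separation was common in 4T1, with 8 of the 30 members higher and 16 lower without overlap. Nsdhl was among them although it was not called (adjusted P-value 0.699 by edgeR). The share of all genes without overlap was not computed for the 17-DMAG responses. Acss2 (-0.39, SE 0.0732, adjusted P-value 3.1e-05) and Elovl6 (-0.21, SE 0.0373, adjusted P-value 1.05e-05) also fell, while Fasn (0.16) and Acaca (0.13) rose. The calls for Acaca and Fads1 (0.12) were lost without the treated replicate 3 (Fads1 also without untreated replicate 2 or 3), and that for Scd2 (-0.14) without the averaged treated replicates 1 and 2, with adjusted P-values of up to 0.064, 0.308 and 0.114. Under scaling by total counts alone, the increases of Fasn, Acaca and Fads1 were not called.

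In 4T1R1, 3 sterol genes rose and 2 fell after 17-DMAG, and in the fatty acid branch 2 rose and 2 fell. Over all genes 13.9% were higher and 14.3% lower. With total counts alone, 3 sterol genes rose and 1 fell, and 3 fatty acid genes rose and 1 fell, where 2357 of all 13507 genes rose and 1316 fell. Lss (log2FC 0.21, SE 0.0428, adjusted P-value 0.000217), Hmgcs1 (0.21, SE 0.046, 0.000639) and Msmo1 (0.16, SE 0.0417, 0.00252) were higher, and Srebf2 (-0.24, SE 0.0379, adjusted P-value 5.45e-06) and Fdft1 (-0.12) lower. Srebf2 had 4393, 4660 and 4337 normalized counts before and 3704, 3845 and 3810 after treatment. Srebf1 fell from 2601, 2791 and 2637 to 2200, 2327 and 2176 normalized counts (log2FC -0.26, SE 0.039, adjusted P-value 1.77e-06). Neither SREBP gene had overlapping libraries in 4T1R1, while those of Hmgcs1 and Msmo1 did overlap between treated and untreated cells. Me1 (0.14), Acaca (0.09) and Scd2 (-0.10) made up the other calls of the branch. The Fdft1 call did not survive 5 of 6 single-library omissions, that is any but that of untreated replicate 1 (adjusted P-value up to 0.13). Those for Me1 (untreated replicate 1 or 2, treated replicate 3), Acaca (untreated replicate 3, treated replicate 1) and Scd2 (untreated replicate 3, treated replicate 2) were lost without the libraries given, with adjusted P-values of up to 0.064, 0.099 and 0.116.

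In 4T1R2, 27 of the 30 genes did not pass the test. In the sterol branch 1 gene rose and 1 fell, and in the fatty acid branch 0 rose and 1 fell by edgeR (3 and 1 at an unadjusted p, 1 and 1 by DESeq2). Over all genes 6.17% were higher and 4.35% lower. With total counts alone, 0 sterol genes were higher and 3 lower, and 0 and 2 fatty acid genes, where 367 of all 13507 genes were higher and 1151 lower. Insig1 fell from 1826, 1860 and 1877 normalized counts to 1678, 1506 and 1433 (log2FC -0.27, SE 0.0579, adjusted P-value 0.00132), with no overlap. Lss was higher, from 1616, 1656 and 1655 to 1837, 1759 and 1845 normalized counts (0.14, SE 0.0412, adjusted P-value 0.0177), a call lost without untreated replicate 1 or treated replicate 1 or 3 (adjusted P-value up to 0.0793). Srebf1 was lower (-0.12, SE 0.0392, adjusted P-value 0.0442) but not when any 1 library was left out (0.0742 to 0.13). For the 27 other genes the 95% intervals stayed between -0.36 (Mvk) and 0.21 (Me1, log2FC 0.12, adjusted P-value 0.0662).

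**Figure D4:**
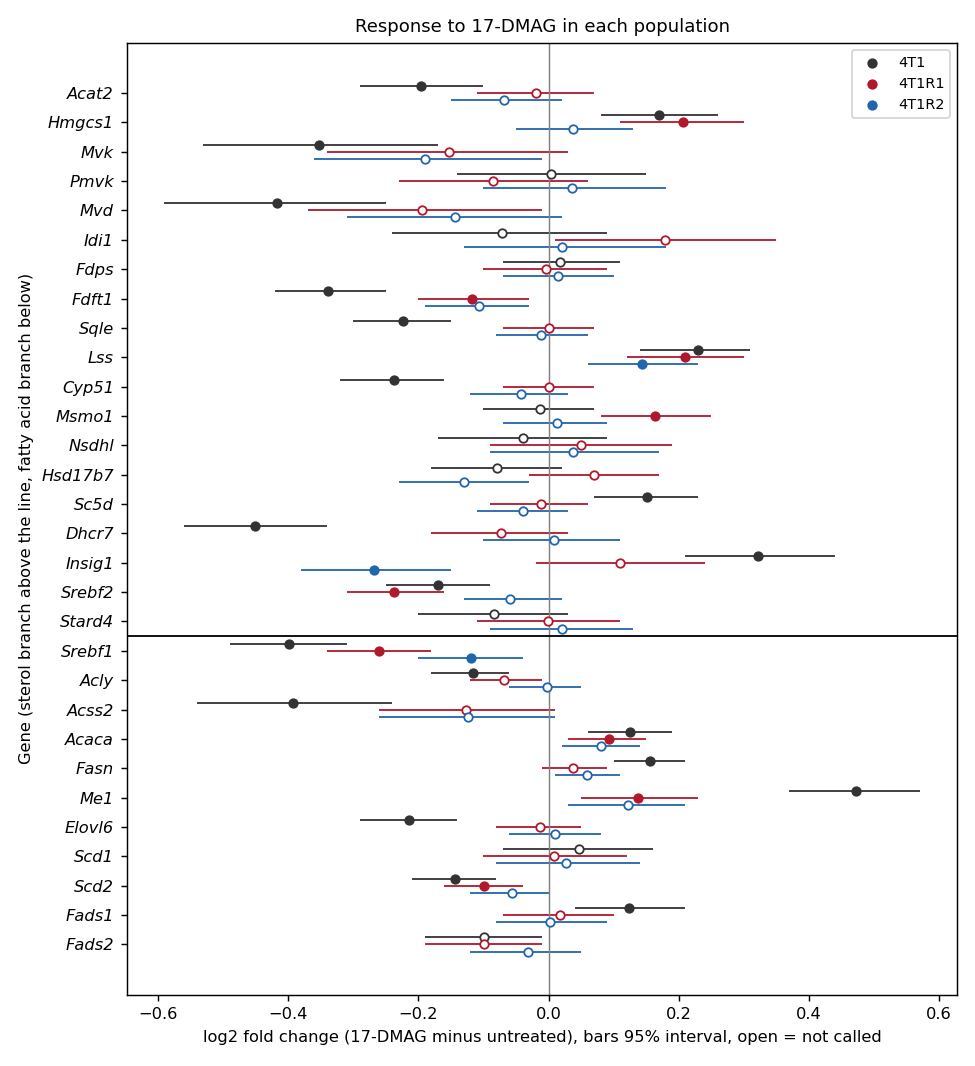
Log2FC after 17-DMAG for the 30 genes in 4T1, 4T1R1 and 4T1R2, each against its own untreated libraries, with 95% intervals from the edgeR fit as bars and open symbols for changes not called. In 4T1 the values run from -0.45 (Dhcr7) to 0.47 (Me1), and in 4T1R2 from -0.27 (Insig1) to 0.14 (Lss).

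The difference between responses was tested for each selected population against 4T1, both using the same 4T1 libraries. In 4T1R1 the response was higher than in 4T1 for 6 sterol genes and lower for 1, and for 1 and 2 fatty acid genes, where 9.21% of all genes were higher and 9.05% lower. In 4T1R2 it was higher for 4 sterol genes and lower for 2, and for 3 and 1 fatty acid genes, against 9.66% and 8.1% of all genes. Dhcr7, lower after 17-DMAG in 4T1, differed by 0.38 in 4T1R1 (SE 0.0746, adjusted P-value 0.000225) and by 0.46 in 4T1R2 (SE 0.0749, adjusted P-value 1.03e-05). Insig1 rose in 4T1 and fell in 4T1R2, a difference of -0.59 (SE 0.0813, adjusted P-value 4.11e-07), while the difference between 4T1R1 and 4T1 did not pass (-0.21, 95% interval -0.38 to -0.04, adjusted P-value 0.0795). The Me1 response was lower than in 4T1 in both, by log2 differences of -0.33 in 4T1R1 (SE 0.0655, adjusted P-value 0.000199) and -0.35 in 4T1R2 (SE 0.0655, adjusted P-value 9.15e-05), and the Me1 change within 4T1R2 did not pass the test. With total counts alone, which moves the median of all genes by 0.15 in the 4T1R1 difference, 12 sterol genes were higher and 0 lower there and 5 and 1 fatty acid genes, and in the 4T1R2 difference 7 and 1 sterol and 5 and 1 fatty acid genes. Over all 13507 genes that scaling gave 3532 higher and 419 lower in the 4T1R1 difference, and 2091 and 632 in the 4T1R2 difference.

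As a level over the whole branch, the median log2 of normalized counts relative to the mean of untreated 4T1 was taken in each library. Untreated libraries of 4T1R1 lay between -1.166 and -1.118 for the sterol branch and those of 4T1R2 between -0.72 and -0.678. After 17-DMAG they lay between -1.127 and -1.05 and between -0.735 and -0.615, and in 4T1 between -0.099 and -0.059. For the fatty acid branch the untreated ranges were -0.442 to -0.41 in 4T1R1 and -0.271 to -0.242 in 4T1R2. The fatty acid ranges after 17-DMAG were -0.555 to -0.495 in 4T1R1, -0.393 to -0.30 in 4T1R2 and -0.10 to -0.089 in 4T1, where untreated libraries lay between -0.023 and 0.007. The sterol level after treatment thus overlapped the untreated level in 4T1R1 and 4T1R2 and lay below it in 4T1, and the fatty acid level lay below the untreated level without overlap in all 3 populations. The median of the 11 fatty acid log2FC was nevertheless -0.01 in 4T1R1 and 0.00 in 4T1R2, so the shift in branch level there is larger than the median change of the genes.

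Other genes of the same pathways were read from lists that are not members. Of 16 tested genes of sterol synthesis and sensing, 10 were lower and 2 higher in untreated 4T1R1 (median log2FC -0.28), and 9 lower and 4 higher in 4T1R2 (median -0.17). Over all genes 27.5% were lower and 25.2% higher in 4T1R1, and 26.9% and 25.6% in 4T1R2. Ebp, a sterol isomerase, was lower by log2FC -0.94 in 4T1R1 and -0.27 in 4T1R2. The ubiquitin ligase genes Rnf145 and Rnf139 had log2FC 0.53 and -0.39 in 4T1R1 and 0.61 and -1.07 in 4T1R2.

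Of 19 tested genes of sterol uptake, efflux and storage, 7 were lower and 6 higher in 4T1R1 (median 0.01), and 8 lower and 4 higher in 4T1R2 (median -0.09). For this list and the next 2, the shares over all genes were 27.5% lower and 25.2% higher in 4T1R1, and 26.9% and 25.6% in 4T1R2. Lipa, lysosomal acid lipase, was higher by 1.45 and 1.18, and the sterol exporter gene Abcg1, at only 22.8 to 29.9 normalized counts in untreated 4T1, by 1.47 in 4T1R1, with -1.07 in 4T1R2. Of 29 tested genes of other fatty acid and glycerolipid synthesis, 17 were lower and 3 higher in 4T1R1 (median -0.27), and 17 lower and 6 higher in 4T1R2 (median -0.18), with the desaturase gene Scd4 at -1.59 and -1.12. Of 19 tested fatty acid oxidation genes, 10 were higher and 6 lower in 4T1R1 (median 0.10), and 9 higher and 6 lower in 4T1R2 (median 0.12). Cpt1a, the gate of fatty acids into mitochondria, was higher by 0.94 in 4T1R1 and 1.25 in 4T1R2, and Plin2, a coat protein of lipid droplets, by 0.61 and 0.70. Angptl4, an inhibitor of lipoprotein lipase, was lower in both (log2FC -0.40 and -0.80), as were Aacs, which activates acetoacetate for lipid synthesis (-0.92 and -0.55), and the desaturase-like gene Fads3 (-0.34 and -1.0). Between the selected populations, 4T1R2 was lower than 4T1R1 in Abcg1 (-2.54), the sterol exporter Abca1 (-0.96), Rnf139 (-0.67), Fads3 (-0.65) and Decr1 (-0.58) and higher in Ebp (0.67), Mid1ip1 (0.62) and Hadhb (0.51).

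After 17-DMAG, 3 of the 16 sterol synthesis and sensing genes rose and 3 fell in 4T1, as in 4T1R1, and 0 were called in 4T1R2 by edgeR and by DESeq2, where 1 rose and 2 fell at an unadjusted p. Over all genes 18.4% rose and 18.0% fell in 4T1, 13.9% and 14.3% in 4T1R1, and 6.17% and 4.35% in 4T1R2. These shares apply to each list below. Mylip, which encodes a ubiquitin ligase, fell in 4T1 (log2FC -1.0, adjusted P-value 3.34e-07) and 4T1R2 (-0.38, adjusted P-value 0.0218) and was at -0.17 in 4T1R1, not called. Rnf145 fell in 4T1 (-0.34) and 4T1R1 (-0.20) and was at -0.02 in 4T1R2, not called. Of the 19 uptake, efflux and storage genes, 3 rose and 2 fell in 4T1, 3 rose and 4 fell in 4T1R1 and 1 rose and 2 fell in 4T1R2. Lpin1, a phosphatidate phosphatase, fell in 4T1R1 (-0.35) and 4T1R2 (-0.79) and was at 0.11 in 4T1, not called. Of the 29 other fatty acid and glycerolipid genes, 7 rose and 7 fell in 4T1, 4 and 5 in 4T1R1, and 2 and 1 in 4T1R2. Fads3 rose in all 3 populations, by log2FC 0.68 in 4T1, 0.30 in 4T1R1 and 0.28 in 4T1R2, and so did Elovl5, an elongase of polyunsaturated fatty acids, by 0.41, 0.38 and 0.23. Pnpla3 and Dgat2 fell in 4T1R1 (-1.55 and -0.59), and were not called in 4T1 (-0.02 and 0.30) or 4T1R2 (-0.48 and -0.10). Pnpla3 was very low in 4T1R1, at only 9.39 to 14.6 normalized counts untreated and 2.12 to 6.64 treated. Of the 19 oxidation genes, 2 rose and 6 fell in 4T1, 1 and 5 in 4T1R1, and 2 and 2 in 4T1R2. Cpt1a fell in each population, by log2FC -0.98 in 4T1 (adjusted P-value 3.57e-17), -0.57 in 4T1R1 (6.73e-13) and -0.46 in 4T1R2 (2.96e-10). Angptl4 fell in 4T1 (-0.55) and rose in 4T1R2 (0.43).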

How the data were processed

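RNA was measured by sequencing in 18 libraries of 6 groups taken from the labels. The authors depleted ribosomal RNA, prepared dUTP libraries, aligned reads to mm10/GRCm38 with STAR and deposited whole-number counts per gene symbol from featureCounts (Subread 1.6.2 and bcl2fastq 2.20 in the submitters' processing notes), without normalization. Use of strand and of reads with several matches is not given in the sources used here. Between 65.6% and 70.8% of counts from 1 to 12 were even, so a count was taken as a read. Rn45s stayed in the totals.

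Counts were fitted with edgeR 4.0.16 in R 4.3.3 (filterByExpr, TMM, group means, quasi-likelihood test, Benjamini-Hochberg over 13507 genes, threshold 0.05, 17 libraries after averaging the pair described). Their common biological coefficient of variation was 0.0376. Standard errors came from the log2FC and its F statistic, and intervals cover 95%. The labels do not say what separates replicates beyond calling them biological, so p-values measure the spread between these libraries. Genes were placed by symbol in GENCODE vM21 (23376 symbols matched), and upstream windows were RefSeq's. Members and lists were chosen with earlier results of these data known. Named were mainly the 4 largest called changes per branch and comparison, Sqle, Hmgcs1, Insig1, Srebf2, Srebf1, Fasn, Acaca and Scd1, and the 2 largest called changes of each other list. Some 17-DMAG responses under this rule are not given, among them those of Scd1, Mbtps2, Lipa and Plin2. Further members were named to account for all 30. The fit was tested on simulated data for the 17-DMAG response in 4T1 only, with changes larger than that of any member there. The outcome is not given here, and the test does not bear on smaller changes. Alternatives were RLE scaling, total counts alone, no filter, at least 10 counts in every library, DESeq2 1.42.0, only the groups compared, 18 separate libraries, a replicate block, and each library left out. Plots used Python 3.11.15 and matplotlib 3.10.9. Results for some withheld items are not reported here.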

Additional observations from a re-analysis of the deposited data

Results flagged for a closer look

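The response to 17-DMAG differed between a selected population and 4T1, by the test of the difference itself, in 20 cases, and each value here is the log2 response in the selected population minus that in 4T1. In 4T1R1 the differences were 0.38 in Dhcr7, 0.24 in Cyp51, 0.22 in Fdft1, 0.22 in Sqle, 0.18 in Msmo1, 0.18 in Acat2 and -0.16 in Sc5d in the sterol branch, and 0.20 in Elovl6, -0.12 in Fasn and -0.33 in Me1 in the fatty acid branch. In 4T1R2 they were 0.46 in Dhcr7, 0.23 in Fdft1, 0.21 in Sqle, 0.20 in Cyp51, -0.19 in Sc5d and -0.59 in Insig1, and 0.28 in Srebf1, 0.22 in Elovl6, 0.11 in Acly and -0.35 in Me1. Both sets rest on the same 4T1 libraries, of which only 2 were treated, so a recurrence of a gene in both is not a repeat. Leaving out a library ended the call for Acat2 in 10 of 11 cases, for Msmo1 in 7, for Sc5d in 6 and for Fasn in 5 in 4T1R1, and for Acly in 8 of 11 in 4T1R2. The calls for Fdft1 in 4T1R1 and Cyp51 in 4T1R2 were lost without the averaged treated 4T1 replicates 1 and 2 (adjusted P-values of 0.0669 and 0.0826), and that for Sc5d in 4T1R2 without treated 4T1 replicate 3 (0.0506). The other 12 differences were called in all 11 omissions.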

How the results depend on the processing

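The untreated comparisons moved least. In untreated 4T1R1 against 4T1, leaving out each library in turn gave 17 to 17 lower and 0 to 0 higher sterol genes and 9 to 10 lower and 1 to 1 higher fatty acid genes. In untreated 4T1R2 against 4T1 it gave 18 to 18 lower and 1 to 1 higher sterol genes and 7 to 8 lower and 1 to 1 higher fatty acid genes, and in 4T1R2 against 4T1R1 15 to 16 higher and 1 to 1 lower sterol genes and 5 to 6 higher and 0 to 1 lower fatty acid genes. Omissions in the 17-DMAG responses gave, for sterol genes higher and lower, 3 to 4 and 8 to 8 in 4T1, 3 to 5 and 1 to 2 in 4T1R1, and 0 to 1 and 1 to 1 in 4T1R2. For fatty acid genes they gave 2 to 4 and 4 to 6 in 4T1, 1 to 2 and 1 to 4 in 4T1R1, and 0 to 0 and 0 to 0 in 4T1R2. The differences of response gave 3 to 7 and 0 to 2 sterol and 1 to 2 and 1 to 2 fatty acid genes for 4T1R1, and 3 to 5 and 1 to 3 sterol and 2 to 4 and 1 to 2 fatty acid genes for 4T1R2. Where an omission left 1 treated 4T1 library, it was assumed to vary like the other groups.

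Scaling by total counts alone changed the 17-DMAG counts most. It gave 2 higher sterol and 1 higher fatty acid genes in 4T1, 1 lower sterol and 1 lower fatty acid gene in 4T1R1, and 0 higher sterol, 3 lower sterol and 2 lower fatty acid genes in 4T1R2. The difference for 4T1R1 then had 12 higher and 0 lower sterol genes and 5 higher and 1 lower fatty acid genes, and that for 4T1R2 had 7 higher and 1 lower sterol genes and 5 higher fatty acid genes. The 4T1R1 difference of Fasn was the only called value to change sign, to 0.03, under this scaling. It shifts the median of all genes by -0.11 in 4T1 and 0.15 in the 4T1R1 difference. Over all genes the 4T1 calls went from 2482 higher and 2430 lower to 1194 and 4323. Calls over all genes for the 4T1R1 difference went from 1244 higher and 1222 lower to 3532 and 419, and for the 4T1R2 difference from 1305 and 1094 to 2091 and 632.

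Without a filter there were 1 lower sterol gene in 4T1R1, 0 lower fatty acid genes in 4T1R2 and 2 lower sterol genes in the 4T1R1 difference. Fitting only the groups compared gave 1 lower sterol gene in 4T1R1, 0 lower fatty acid genes in 4T1R2 against 4T1R1 and 2 lower fatty acid genes in the 4T1R2 difference. DESeq2 called 1 higher fatty acid gene in 4T1R2. At least 10 counts in every library gave 2 higher fatty acid genes in the 4T1R1 difference, and 18 separate libraries gave 2 higher there and 2 lower in the 4T1R2 difference. The cause was not tested in these cases. The replicate block, with 18 separate libraries, gave 5 higher and 2 lower fatty acid genes in the 4T1R2 difference, and moved no other count of called members by over 1.5 times. Libraries of the same number correlated at -0.0466 to 0.0526 in their deviations from the group means, so the numbers do not pair them. Of the called changes of single members, 797 results of omissions stayed called and 80 did not, and under the other settings 1038 stayed called, 25 did not and 1 reversed. The lowest raw count of a member was 252 (Mvd), and precision was lower for such genes, with a standard error of 0.0892 for Mvd in the 17-DMAG response of 4T1R1 against 0.0298 for Acaca.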
